A study of Homo sapiens with 12 samples.

Results

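The serine and folate one-carbon enzymes are the proteins that make serine from glucose and pass its carbon through folate to thymidylate and purines. They were represented by 9 genes (PHGDH, PSAT1, PSPH, SHMT1, SHMT2, MTHFD1, MTHFD2, MTHFD1L and TYMS) among 19775 genes that had at least 1 probe set carrying their symbol alone. The members were every probe set that the platform annotation gives to 1 of these 9 symbols and to no other, which came to 20 probe sets. Of these, 14 probe sets of 7 genes reached a log2 value of 4 on at least 3 of the 12 arrays and were tested, and all 14 did so on every array, with a lowest value of 4.12. The other 6 probe sets lay between 2.12 and 3.96 on all arrays, which is background for this kind of array, and were not tested. They held both probe sets of SHMT1, both of MTHFD1L, 1 of MTHFD1 and 1 of PSPH, so that SHMT1 and MTHFD1L had no tested probe set of their own.

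The cells were CCRF-CEM-C7H2, a clonal line of human T-cell acute lymphoblastic leukemia that responds to glucocorticoids, cultured in the same way in all groups. One group was exposed to 100 nM dexamethasone, a synthetic glucocorticoid, for 24 h, with a carrier control of 0.1% ethanol at 24 h, and a second pair of groups got dexamethasone or ethanol for 6 h. Each group held 3 arrays (Affymetrix HG-U133 Plus 2.0), 1 per independent experiment. The labels number the 24 h experiments 1, 2 and 3 and the 6 h experiments 0, 1 and 3. The study asked which primary microRNA transcripts respond to the glucocorticoid, and the arrays measured the one-carbon enzymes alongside them.

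Scan codes in the labels put the 6 dexamethasone and ethanol arrays of 24 h into 1 batch, the dexamethasone arrays of 6 h into another, and the ethanol arrays of 6 h into one more. At 6 h, therefore, batch and treatment cannot be told apart, and no value within a batch exists there, while at 24 h every comparison lies within 1 batch. Between 41.2 and 42.0% of probe sets per array reached a log2 of 4, and arrays of 1 group correlated at r of 0.989 or more across the tested probe sets. The T-lineage label was checked against 12 markers, of which 11 had a probe set of their own and 9 were above background, among them CD3D, CD3E, CD3G, CD7 and LCK, with CD2 and CD28 at background on all arrays. All 4 measured myeloid markers, both erythroid markers, 3 of 4 stromal markers and 2 of 4 B-lineage markers were at background on every array, and the exceptions were COL1A1, CD79A and CD79B. The summed linear level of the B-lineage markers was 3376 to 3726 on the 24 h dexamethasone arrays and 1190 to 1361 on the 24 h ethanol arrays, and that of the T-lineage markers 55654 to 57525 against 40640 to 41904. The sums hide unlike members. In limma's test at 24 h, 4 of the 9 T-lineage markers were higher, 3 were lower and 2 did not pass. CD79A was higher by 1.55 (adjusted p = 5.07e-05), and CD79B differed by 0.25 without passing (adjusted p = 0.256). The part of these shifts in the results below was not tested.

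In the textbook pathway, PHGDH, PSAT1 and PSPH turn a glycolytic intermediate into serine in successive steps, and serine hydroxymethyltransferases (SHMT1 in the cytosol, SHMT2 in mitochondria) move a carbon unit of serine onto tetrahydrofolate, leaving glycine. In mitochondria MTHFD2 oxidises that unit and MTHFD1L releases it as formate, which leaves for the cytosol. There the trifunctional MTHFD1 loads formate back onto folate for purine synthesis and for TYMS, the enzyme that methylates deoxyuridylate to thymidylate. Dividing lymphoid cells depend on this supply for nucleotides, and antifolates such as methotrexate, long used against acute lymphoblastic leukemia, act on it. In the annotation of GRCh38.p14 the genes lie apart in the genome: PHGDH at chr1:119711934-119744215, PSAT1 at chr9:78297125-78330093, PSPH at chr7:56011064-56051444, SHMT1 at chr17:18327873-18363550, SHMT2 at chr12:57229711-57234935, MTHFD1 at chr14:64388353-64460025, MTHFD2 at chr2:74198615-74217565, MTHFD1L at chr6:150865702-151101887 and TYMS at chr18:657653-673578.

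The stretch before the transcription start is shown for 4 members that fell at 24 h and for TYMS, which did not pass the test. RefSeq promoter windows of GRCh38.p14 (250 bases before the start and 50 after it) were matched for 7 of the 9 members, in 10 windows. PSPH and SHMT2 had none. Each line below gives the 250 bases before the start, 5' to 3' on the gene's own strand, which is the plus strand in all 5. Capitals mark matches to 5 motifs searched on both strands: CACGTG (the E-box bound by MYC), CCAAT (the NF-Y box), TTTNNCGC (E2F), TGATGNAA (the element read by C/EBP and ATF4) and the palindromic glucocorticoid response element. No 2 of the marked matches overlap.
PHGDH: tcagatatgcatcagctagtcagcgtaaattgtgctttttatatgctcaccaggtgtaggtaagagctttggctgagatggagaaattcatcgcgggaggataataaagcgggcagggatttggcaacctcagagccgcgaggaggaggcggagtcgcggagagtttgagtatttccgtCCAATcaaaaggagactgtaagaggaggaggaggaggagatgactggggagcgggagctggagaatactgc
PSAT1: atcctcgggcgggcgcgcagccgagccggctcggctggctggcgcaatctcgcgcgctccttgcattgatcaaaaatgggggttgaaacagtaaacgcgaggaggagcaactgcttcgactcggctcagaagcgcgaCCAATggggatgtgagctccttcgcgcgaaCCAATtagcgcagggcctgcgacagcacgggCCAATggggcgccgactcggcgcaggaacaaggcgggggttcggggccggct
MTHFD1: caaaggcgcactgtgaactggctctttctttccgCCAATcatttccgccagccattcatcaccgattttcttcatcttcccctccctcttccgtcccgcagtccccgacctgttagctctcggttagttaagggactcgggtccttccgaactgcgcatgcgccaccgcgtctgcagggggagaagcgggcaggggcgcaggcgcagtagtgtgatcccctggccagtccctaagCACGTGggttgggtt
MTHFD2: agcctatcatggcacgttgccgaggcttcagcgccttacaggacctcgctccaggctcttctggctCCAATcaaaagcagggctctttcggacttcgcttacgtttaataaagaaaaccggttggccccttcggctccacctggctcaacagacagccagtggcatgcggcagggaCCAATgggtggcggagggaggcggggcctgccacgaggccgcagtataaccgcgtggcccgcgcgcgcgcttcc
TYMS: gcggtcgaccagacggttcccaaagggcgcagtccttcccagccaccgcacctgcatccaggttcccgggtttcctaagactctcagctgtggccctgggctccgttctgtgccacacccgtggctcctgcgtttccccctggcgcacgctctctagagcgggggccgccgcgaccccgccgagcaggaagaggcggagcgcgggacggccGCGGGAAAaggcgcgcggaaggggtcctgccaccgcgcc
The windows are chr1:119711684-119711933 for PHGDH, chr9:78296875-78297124 for PSAT1, chr14:64388103-64388352 for MTHFD1, chr2:74198365-74198614 for MTHFD2 and chr18:657403-657652 for TYMS. The NF-Y box, a common promoter element, occurred in the windows of 6 of the 7 matched members, all but TYMS, against 34.6% of all 35116 windows. Its first base stood 71 bases before the start in PHGDH, 113, 83 and 52 bases before it in PSAT1, 216 bases before it in MTHFD1, and 184 and 74 bases before it in MTHFD2. The E-box occurred in MTHFD1, 15 bases before the start, and in the windows of MTHFD1L, against 7.26% of all windows. TYMS held the E2F motif on the opposite strand, read here as GCGGGAAA and 39 bases before the start, a motif found in 6.89% of all windows. The C/EBP and ATF4 element was in the windows of MTHFD1L and of no other member (3.62% of all windows), and the palindromic glucocorticoid element was in no member's window and in 0.00285% of all windows. Members were counted per gene, by a match in any of their windows, while the shares are per window, so the units differ. SHMT1 and MTHFD1L, which held the NF-Y box, had no tested probe set of their own. Whether any motif goes with the response was not tested. A match here is a run of letters and not a measured binding site.

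After 24 h of dexamethasone, 9 of the 14 tested one-carbon probe sets were lower than in ethanol past the test, none was higher and 5 did not pass. The median difference was -0.82 on the log2 scale, against -0.01 over all 23265 tested probe sets. At 24 h 47.3% of all tested probe sets passed the same test (an adjusted p under 0.05 from limma, fitted to all 12 arrays), 24.5% of them lower and 22.8% higher. Counted once per gene, by its brightest tested probe set, PHGDH, PSAT1, PSPH, MTHFD1 and MTHFD2 fell, while SHMT2 and TYMS did not pass. Over all 9947 tested genes 2797 fell and 2378 rose. In RNA from whole cultures, fewer cells carrying a transcript and less of it per cell cannot be told apart.

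**Figure D1:**
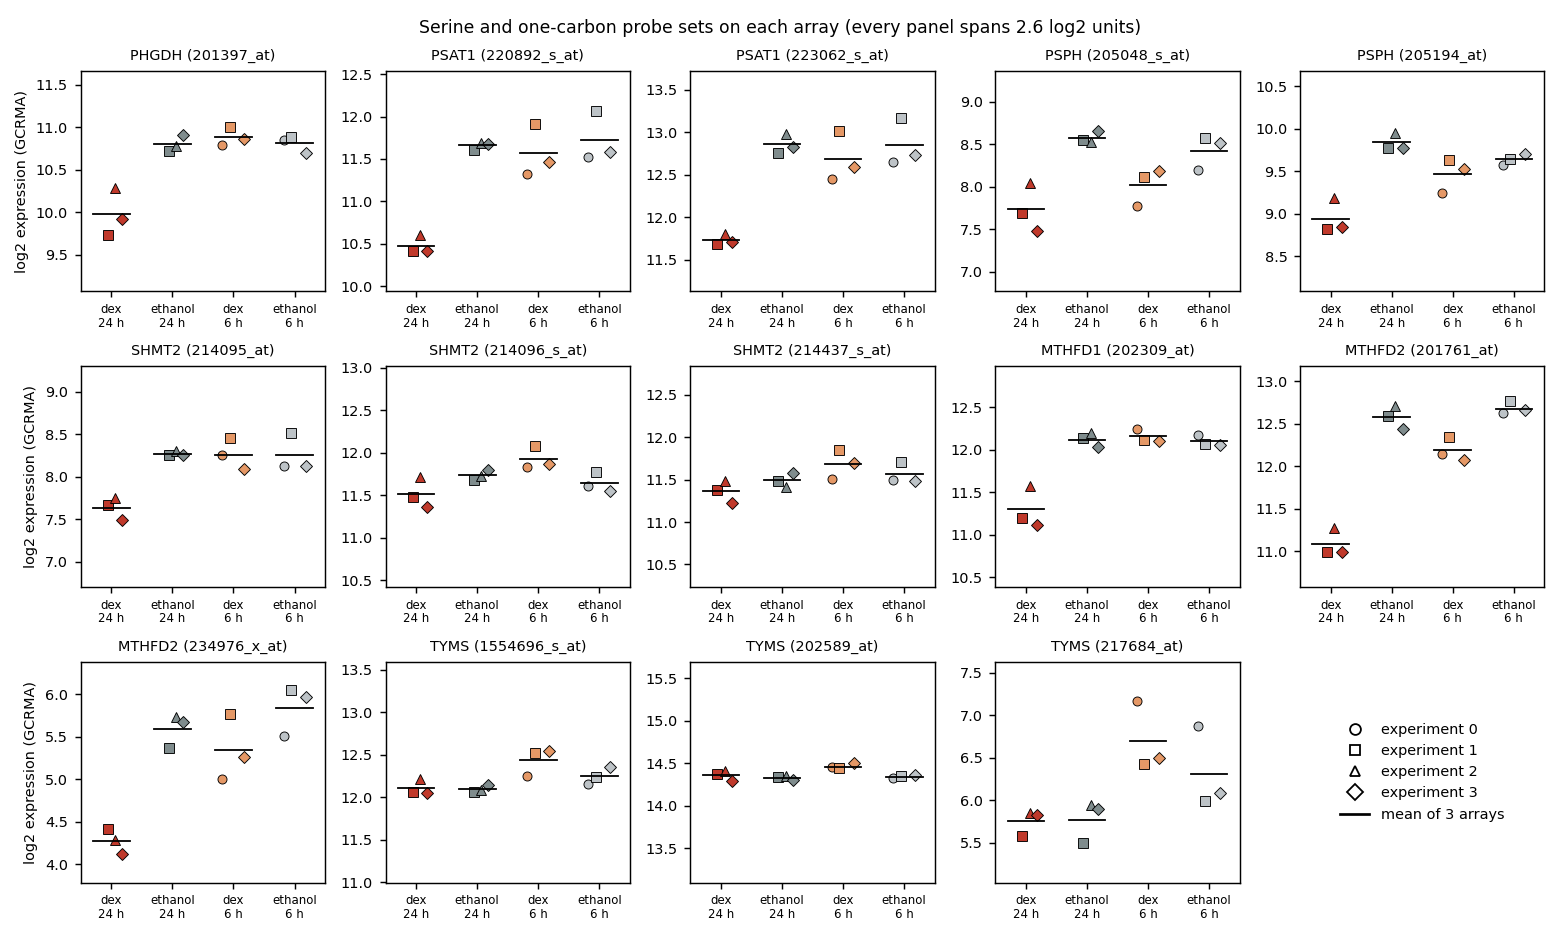
Log2 expression (GCRMA) of the 14 tested one-carbon probe sets on each of the 12 arrays, with 1 panel per probe set and every panel spanning 2.6 log2 units. Symbols give the experiment, colours the group and bars the mean of 3 arrays. In 9 panels all 3 dexamethasone arrays of 24 h lie below all 3 ethanol arrays of 24 h, and in the 3 TYMS panels and 2 of the 3 SHMT2 panels they overlap.

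The genes of serine synthesis were all lower at 24 h. PHGDH (201397_at), the dehydrogenase of the first and committed step, had log2 values of 9.73, 10.28 and 9.92 with dexamethasone in experiments 1, 2 and 3, against 10.72, 10.78 and 10.91 with ethanol. The groups did not overlap, and experiment 2 held the highest of the dexamethasone values. PHGDH fell by 0.83 ± 0.13 on the log2 scale (limma's standard error, n = 3 arrays per group, adjusted p = 0.000361), to 56.4% of its level in ethanol, with a 95% interval of 46.2 to 68.7%.

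PSAT1, the aminotransferase of the second step, was measured by a pair of probe sets. On 223062_s_at the dexamethasone arrays read 11.68, 11.80 and 11.71, against 12.76, 12.98 and 12.83 on the ethanol arrays. The dexamethasone values lay close together and far below the ethanol values. The difference was -1.12 ± 0.16 (adjusted p = 0.000194), which left 45.9% of the ethanol level (35.9 to 58.7%). The other PSAT1 probe set, 220892_s_at, averaged 10.48 ± 0.11 with dexamethasone and 11.66 ± 0.05 with ethanol (SD, n = 3 each), a difference of -1.17 ± 0.17 (adjusted p = 0.000176). Both probe sets thus gave like sizes for this gene.

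PSPH, the phosphatase that releases serine in the last step, read 8.82, 9.18 and 8.84 with dexamethasone on 205194_at, against 9.78, 9.95 and 9.78 with ethanol. Again no dexamethasone array reached the lowest ethanol array. The difference was -0.89 ± 0.12 (adjusted p = 0.000147), to 53.8% of ethanol (44.6 to 65.0%). On 205048_s_at PSPH averaged 7.74 ± 0.28 with dexamethasone and 8.57 ± 0.07 with ethanol (SD, n = 3 each), a difference of -0.84 ± 0.16 (adjusted p = 0.00118). The third PSPH probe set, 244819_x_at, stayed below a log2 of 4 on every array and gives no level for the gene.

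The serine hydroxymethyltransferases showed no single pattern. For the mitochondrial SHMT2, the 3 tested probe sets disagreed in size. On 214095_at the arrays read 7.66, 7.75 and 7.49 with dexamethasone and 8.26, 8.30 and 8.25 with ethanol, without overlap, and this probe set fell by 0.64 ± 0.12 (adjusted p = 0.00158), to 64.2% of ethanol (53.0 to 77.7%). The brighter 214096_s_at read 11.48, 11.71 and 11.36 with dexamethasone, against 11.68, 11.73 and 11.80 with ethanol. Here experiment 2 with dexamethasone lay among the ethanol values, and the difference of -0.22 ± 0.11 did not pass (adjusted p = 0.108, 85.7% of ethanol, interval 72.9 to 101%). Without the dexamethasone array of experiment 2 it was -0.32 and passed (adjusted p = 0.0291). The third, 214437_s_at, averaged 11.36 ± 0.13 with dexamethasone and 11.49 ± 0.09 with ethanol (SD, n = 3 each) and differed by -0.13 ± 0.11 (adjusted p = 0.357). Which SHMT2 transcripts each probe set detects was not tested. The cytosolic SHMT1 shares its brighter probe sets in the annotation with MIR6778, a microRNA gene, and so has no value of its own: the probe sets listed under both symbols, 209980_s_at and 224954_at, differed by -0.33 ± 0.15 (adjusted p = 0.102) and -0.22 ± 0.09 (adjusted p = 0.0714).

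Of the dehydrogenase and cyclohydrolase enzymes, MTHFD2 had the lowest difference of all members. MTHFD2 is the mitochondrial enzyme that is scarce in most adult tissues and abundant in dividing and tumour cells. On 201761_at it read 10.99, 11.28 and 10.99 with dexamethasone, against 12.59, 12.71 and 12.44 with ethanol. The gap between the highest dexamethasone array and the lowest ethanol array was wider than the spread within either group. MTHFD2 fell by 1.49 ± 0.11 (adjusted p = 1.62e-06), to 35.5% of ethanol (30.0 to 42.0%), and 1.81% of all tested probe sets had a lower difference. The dim probe set 234976_x_at, whose suffix marks probes that can match other transcripts, averaged 4.27 ± 0.15 with dexamethasone and 5.59 ± 0.20 with ethanol (SD, n = 3 each), a difference of -1.32 ± 0.20 (adjusted p = 0.000297).

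MTHFD1, the cytosolic trifunctional enzyme, read 11.20, 11.58 and 11.12 with dexamethasone on 202309_at, against 12.14, 12.20 and 12.03 with ethanol. Experiment 2 once more had the highest dexamethasone value, still below every ethanol array. The difference was -0.82 ± 0.11 (adjusted p = 0.000152), to 56.5% of ethanol (47.5 to 67.3%). Its second probe set, 239846_at, was at background throughout.

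Probe sets listed under MTHFD1L together with LOC101928195 and LOC100996643, both annotated as transcribed pseudogenes, cannot be given to 1 gene, and they were left out of the member counts. On 225520_at the dexamethasone arrays read 8.63, 9.15 and 8.77, against 10.64, 10.90 and 10.69 on the ethanol arrays, a difference of -1.89 ± 0.13 (adjusted p = 8.10e-07) or 26.9% of ethanol (22.2 to 32.6%). On 231094_s_at they read 6.65, 7.27 and 6.87 against 8.81, 8.93 and 8.92, a difference of -1.96 ± 0.20 (adjusted p = 1.97e-05). Both differences were further below 0 than that of any member, and which of the 3 listed genes the signal came from was not tested. In the opposite direction, 212995_x_at, listed under PHGDH, MZT2A and MZT2B, averaged 13.20 ± 0.01 with dexamethasone and 12.92 ± 0.06 with ethanol (SD, n = 3 each) and was higher by 0.28 ± 0.06 (adjusted p = 0.00368), unlike the probe set that carries PHGDH alone.

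TYMS, which makes thymidylate and regenerates dihydrofolate in doing so, was the member gene whose probe sets all stayed near 0 at 24 h. On 202589_at the arrays read 14.37, 14.41 and 14.29 with dexamethasone, against 14.34, 14.35 and 14.30 with ethanol. The groups overlapped fully, and the difference was 0.02 ± 0.06 (adjusted p = 0.775), with a 95% interval of 92.6 to 112% of the ethanol level. That interval does not reach the 56.5% measured for MTHFD1 or the 35.5% for MTHFD2. On 1554696_s_at the difference was 0.01 ± 0.09 (adjusted p = 0.948, interval 87.2 to 116% of ethanol). The dim 217684_at differed by -0.02 ± 0.25 (adjusted p = 0.947), with a wider interval of 66.9 to 145% of ethanol.

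The 9 probe sets that fell kept their calls when any 1 of the 12 arrays was left out. In these 9, and in no other of the 14 tested, every dexamethasone array lay below every ethanol array, which was so in 31.9% of all tested probe sets, and none of the 14 had the opposite order, found in 29.2%. The untested PSPH probe set 244819_x_at had the same order at background, with means of 3.21 ± 0.03 with dexamethasone and 3.64 ± 0.27 with ethanol (SD, n = 3 each). When each array was shifted to its poly-A spike controls, RNAs added before labelling, 11 of the 14 one-carbon probe sets were lower past the test, none was higher, and the TYMS differences, still not called, lay between -0.37 and -0.32. On that scale 53.3% of all 23265 tested probe sets passed, 10222 lower and 2185 higher. The spikes read 0.34 log2 units higher on the dexamethasone arrays of 24 h than on the ethanol arrays, and the median of all tested probe sets at 24 h was -0.35 on that scale. The hybridization controls, a separate kind of control, also read higher on these dexamethasone arrays, by 0.38. What moved either kind of control was not tested.

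Same-numbered experiments were set against each other to see how even the fall was. Over the 9 probe sets called lower, the median difference was -0.96 in experiment 1, -0.77 in experiment 2 and -1.12 in experiment 3. Of these 9, 8 had their highest dexamethasone value in experiment 2, as did 61.8% of all 5693 probe sets called lower, and in 7 the difference was smallest there. The same experiment held the smallest difference in 55.4% of all probe sets called lower and in 53.1% of all 5304 called higher. MTHFD2 (201761_at) differed by -1.60, -1.44 and -1.44 in experiments 1, 2 and 3, PSAT1 (223062_s_at) by -1.07, -1.17 and -1.12, and PHGDH by -0.99, -0.50 and -0.99. PHGDH was thus the less even of these 3 genes.

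At 6 h only MTHFD2 passed the test. Of the 14 tested probe sets, 1 was lower, none was higher and 13 did not pass, where 6.20% of all tested probe sets passed, 3.54% lower and 2.66% higher. The median difference of the members was 0.03, against -0.01 over all tested probe sets. MTHFD2 (201761_at) read 12.15, 12.35 and 12.07 with dexamethasone in experiments 0, 1 and 3, against 12.63, 12.77 and 12.66 with ethanol. All 3 dexamethasone arrays lay below all 3 ethanol arrays, and the difference of -0.49 ± 0.11 (adjusted p = 0.0256) left 71.1% of the ethanol level (60.1 to 84.1%).

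With any 1 array left out, that difference stayed between -0.57 and -0.43, but its call did not always hold. The call was lost when any 1 of 5 of the 6 h arrays was left out. The adjusted p was 0.0625 and 0.0887 without the dexamethasone arrays of experiments 0 and 3. Without the ethanol arrays of experiments 0, 1 and 3 it was 0.0552, 0.0824 and 0.0657. In those 5 fits the 6 h calls over all tested probe sets fell from 1443 to between 848 and 1322. The MTHFD2 call was also lost in a fit to the 6 h arrays alone (adjusted p = 0.0700). It was stronger with the experiment as a replicate block (adjusted p = 0.00681), where the differences of same-numbered arrays were -0.48, -0.42 and -0.59. The second MTHFD2 probe set, 234976_x_at, differed by -0.50 ± 0.20 at 6 h without passing (adjusted p = 0.194).

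The serine synthesis genes had no call at 6 h. PHGDH read 10.79, 11.00 and 10.86 with dexamethasone and 10.85, 10.88 and 10.69 with ethanol, a difference of 0.08 ± 0.13 (adjusted p = 0.806) that became -0.40 on the spike scale. PSAT1 (223062_s_at) read 12.45, 13.02 and 12.59 with dexamethasone, against 12.65, 13.17 and 12.73 with ethanol. Experiment 1 was the highest of its group in both PSAT1 groups, and the difference was -0.17 ± 0.16 (adjusted p = 0.626). PSPH differed by -0.17 ± 0.12 on 205194_at (adjusted p = 0.495) and by -0.40 ± 0.16 on 205048_s_at (adjusted p = 0.174). On 205048_s_at no dexamethasone array reached the ethanol arrays, which held for 2 member probe sets, the other being MTHFD2 (201761_at), against 13.7% of all tested probe sets.

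For MTHFD1, SHMT2 and TYMS, 6 h means lay at or above those in ethanol without passing, and below them on the spike scale. MTHFD1 differed by 0.05 ± 0.11 (adjusted p = 0.860). SHMT2 (214096_s_at) read 11.83, 12.08 and 11.87 with dexamethasone and 11.61, 11.77 and 11.55 with ethanol, a difference of 0.28 ± 0.11 (adjusted p = 0.163), and TYMS (202589_at) read 14.45, 14.44 and 14.50 against 14.32, 14.35 and 14.36, a difference of 0.12 ± 0.06 (adjusted p = 0.301). In these 2 probe sets every dexamethasone array lay above every ethanol array, which was so in 9.78% of all tested probe sets. The dim TYMS probe set 217684_at differed by 0.38 ± 0.25 (adjusted p = 0.440) and passed with the experiment as a replicate block (adjusted p = 0.0156). On the spike scale the 6 h differences of MTHFD1, SHMT2 and TYMS were all negative, between -0.47 and -0.10, since the spikes read 0.48 log2 units higher on the dexamethasone arrays of 6 h and the median of all tested probe sets moved to -0.49. The hybridization controls read 0.34 higher on the same dexamethasone arrays. The 18S ribosomal control probe sets averaged 8.99 to 10.02 on the dexamethasone arrays of 6 h and 10.59 to 12.41 on the ethanol arrays of 6 h, and their part in the 6 h values was not tested.

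**Figure D2:**
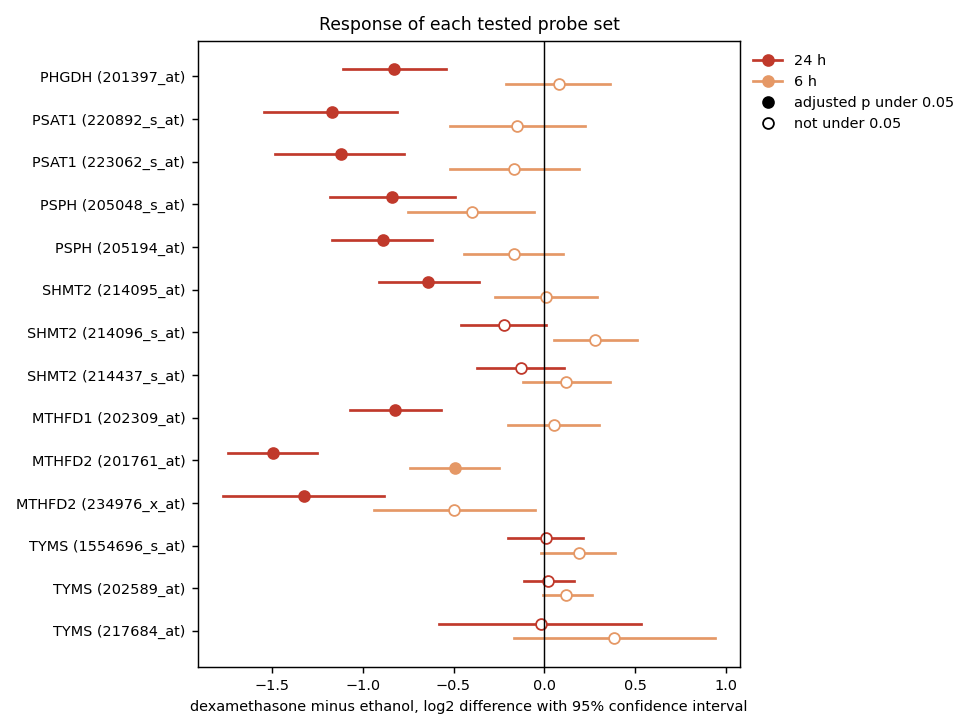
Difference between dexamethasone and ethanol (log2, horizontal axis) for each of the 14 tested one-carbon probe sets at 24 h and at 6 h, with 95% confidence intervals from limma. Filled points passed an adjusted p under 0.05. At 24 h 9 points are filled, all left of 0, and at 6 h only MTHFD2 (201761_at) is filled, at -0.49.

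Whether the response itself differed between the times was tested as the 24 h difference minus the 6 h difference. Of the 14 probe sets, 8 were more negative at 24 h past the test, none was more positive and 6 did not pass, where 23.1% of all tested probe sets passed, 11.7% in the negative direction and 11.4% in the positive. The median over the members was -0.69, against 0.01 over all tested probe sets. The 6 h arrays bring the 6 h batches into this comparison.

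The serine synthesis genes and the MTHFD enzymes made up most of these calls. PSAT1 changed by -1.02 ± 0.23 on 220892_s_at (adjusted p = 0.0101) and by -0.96 ± 0.23 on 223062_s_at (adjusted p = 0.0122). MTHFD2 (201761_at) changed by -1.00 ± 0.16 (adjusted p = 0.00119), PHGDH by -0.90 ± 0.18 (adjusted p = 0.00535) and MTHFD1 by -0.87 ± 0.16 (adjusted p = 0.00315). MTHFD2 (201761_at) had differences of -0.49 at 6 h and -1.49 at 24 h, while PHGDH and MTHFD1 had 6 h differences of 0.08 and 0.05. At 6 h treatment cannot be told apart from batch, and the MTHFD2 call there was lost without any 1 of 5 arrays. An earlier fall of MTHFD2 than of the other genes therefore cannot be read from these values. PSPH changed by -0.73 ± 0.17 on 205194_at (adjusted p = 0.0127), and its other probe set by -0.43 ± 0.22 without passing (adjusted p = 0.192).

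SHMT2 changed between the times by -0.65 ± 0.18 on 214095_at (adjusted p = 0.0227) and by -0.50 ± 0.15 on 214096_s_at (adjusted p = 0.0339), and by -0.25 ± 0.15 on 214437_s_at, which did not pass (adjusted p = 0.283). The call on 214095_at was lost without any 1 of 4 arrays, which were dexamethasone of experiment 3 and ethanol of experiment 2 at 24 h and ethanol of experiments 0 and 3 at 6 h (adjusted p of up to 0.0567). The call on 214096_s_at was lost without any 1 of 8 arrays, which were dexamethasone of experiments 1 and 3 and all 3 ethanol arrays at 24 h, and dexamethasone of experiment 1 and ethanol of experiments 0 and 3 at 6 h (adjusted p of up to 0.0784). TYMS changed by -0.10 ± 0.09 on 202589_at (adjusted p = 0.466). With the experiment as a replicate block nested in time 10 of the 14 probe sets passed, where 33.9% of all tested probe sets did. On the spike scale 5 passed, where 14.1% of all did. There 3 calls were lost, which were those of PSPH 205194_at (-0.59, adjusted p = 0.0870) and of SHMT2 214095_at (-0.52, adjusted p = 0.111) and 214096_s_at (-0.37, adjusted p = 0.234).

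The carrier controls of the 2 times were compared to see whether the enzymes drifted in culture. No one-carbon probe set passed between ethanol at 24 h and ethanol at 6 h in limma's test, and none had an unadjusted p under 0.05, where 0.486% of all tested probe sets passed. PHGDH averaged 10.80 ± 0.10 in ethanol at 24 h and 10.81 ± 0.10 at 6 h, and MTHFD1 12.12 ± 0.09 and 12.10 ± 0.07 (SD, n = 3 each). The widest difference among the members was that of the dim TYMS probe set 217684_at, at -0.54 ± 0.25 (adjusted p = 0.342), and the others lay between -0.25 and 0.20. These arrays also cross batches.

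Genes next to the one-carbon enzymes in metabolism were counted in 5 lists, each gene by its brightest tested probe set (the highest mean over all arrays), and up to 4 genes per list with the smallest p at 24 h are named. In the list of folate carriers and further folate enzymes (14 tested of 21), 6 genes fell at 24 h and 1 rose, with a median of -0.21, against -0.02 over all tested genes. Of all 9947 tested genes, 2797 fell and 2378 rose. SLC19A1, the reduced folate carrier that also takes up methotrexate, averaged 8.20 ± 0.27 with dexamethasone and 9.95 ± 0.18 with ethanol (SD, n = 3 each), a difference of -1.75 ± 0.16 (adjusted p = 6.28e-06). GCSH, the carrier protein of the glycine cleavage system, fell by 1.34 ± 0.08 (adjusted p = 5.07e-07), and SLC25A32, which brings folate into mitochondria, differed by -1.07 ± 0.09 (adjusted p = 5.54e-06). DHFR2, a paralog of dihydrofolate reductase, fell by 0.80 ± 0.12 (adjusted p = 0.000284). MTHFD2L, named after its value was seen, differed by -0.36 ± 0.12 (adjusted p = 0.0286). Its call was lost without any 1 of 4 arrays (adjusted p of up to 0.103). The 1 gene that rose, named after its value was seen, was GGH, which trims polyglutamate tails from folates: it was higher by 0.33 ± 0.11 (adjusted p = 0.0270), lost the call without the 24 h ethanol array of experiment 2 (adjusted p = 0.111), the ethanol array of experiment 1 or the dexamethasone array of experiment 3, and stood at -0.02 on the spike scale, where 9 genes of the list fell and none rose. At 6 h SLC25A32 alone passed in this list, with a difference of -0.57 ± 0.09 (adjusted p = 0.00541).

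Both purine enzymes that take formyl groups from folate fell at 24 h, as did 2797 of all 9947 tested genes. GART averaged 10.40 ± 0.18 with dexamethasone and 11.52 ± 0.07 with ethanol (SD, n = 3 each), a difference of -1.12 ± 0.09 (adjusted p = 2.84e-06), and ATIC, the enzyme of the last steps of inosinate synthesis, 10.17 ± 0.16 against 11.20 ± 0.07, a difference of -1.03 ± 0.12 (adjusted p = 5.37e-05). Neither passed at 6 h, with differences of -0.05 ± 0.09 and -0.03 ± 0.12. On the spike scale both were lower at 6 h past the test, at -0.53 (adjusted p = 0.00879) and -0.51 (adjusted p = 0.0111). There 68.0% of all tested probe sets passed at 6 h. At 24 h their sizes lay near that of PSAT1 (-1.12 on 223062_s_at). Since batch and treatment cannot be told apart at 6 h, their timing cannot be read from these values.

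The thymidylate and deoxynucleotide list (9 tested of 11) had 2 genes lower, 2 higher and a median of 0.01 at 24 h, where 2797 of all 9947 tested genes were lower and 2378 higher. No difference between lists was tested. DTYMK, which phosphorylates thymidylate, fell by 0.42 ± 0.07 (adjusted p = 0.000664), and DCTD, which makes deoxyuridylate for TYMS, fell by 0.54 ± 0.12 (adjusted p = 0.00312). DCK, the salvage kinase of deoxycytidine, was higher by 0.24 ± 0.07 (adjusted p = 0.0201) and stood at -0.11 on the spike scale. RRM2B, a ribonucleotide reductase subunit induced by p53, was higher by 0.50 ± 0.16 (adjusted p = 0.0249). DCK lost its call without any 1 of the 24 h dexamethasone arrays of experiments 1 and 3 or the ethanol arrays of experiments 2 and 3 (adjusted p of up to 0.0650), and RRM2B without any 1 of the dexamethasone arrays of experiments 1 and 3 or the ethanol arrays of experiments 1 and 2 (up to 0.0800). On the spike scale none of the list rose and 3 fell. No gene of the list passed at 6 h.

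In the list of serine carriers and serine-using enzymes (15 tested of 18), 7 genes fell at 24 h and 3 rose, with a median of -0.33. Of all 9947 tested genes, 2797 were lower and 2378 higher. SLC1A4, a plasma membrane exchanger of serine and other neutral amino acids, averaged 11.89 ± 0.06 with dexamethasone and 10.73 ± 0.15 with ethanol (SD, n = 3 each), and was higher by 1.16 ± 0.11 (adjusted p = 8.96e-06) and, at 6 h, by 0.77 ± 0.11 (adjusted p = 0.00209). The sodium-coupled carrier SLC38A2 was higher by 0.51 ± 0.06 at 24 h (adjusted p = 7.51e-05) and by 0.29 ± 0.06 at 6 h (adjusted p = 0.0242), and on the spike scale these differences were 0.17 and -0.19 and did not pass. Its 6 h call was lost without any 1 of the 3 dexamethasone arrays or the ethanol arrays of experiments 0 and 3 (adjusted p of up to 0.0831). SLC1A4 stood on the spike scale at 0.81 at 24 h (adjusted p = 0.000336) and at 0.29 at 6 h (adjusted p = 0.0900). SFXN1, which carries serine into mitochondria, fell by 0.86 ± 0.11 (adjusted p = 0.000116), and PTDSS1, which makes phosphatidylserine, fell by 0.44 ± 0.07 (adjusted p = 0.000473). SFXN2, named after its value was seen, differed by -0.76 ± 0.21 (adjusted p = 0.0122). Its call was lost without the 24 h dexamethasone array of experiment 1 (adjusted p = 0.0513). The third rise, named after its value was seen, was that of SPTLC2, a subunit of the enzyme that starts sphingolipid synthesis (0.46 ± 0.15, adjusted p = 0.0255). It lost its call without any 1 of the 24 h ethanol arrays of experiments 1 and 2 or the dexamethasone arrays of experiments 2 and 3 (adjusted p of up to 0.101), and on the spike scale SLC1A4 alone rose in the list and 10 genes fell.

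In the methionine cycle (7 tested of 10), which takes methyl groups from folate, 3 genes fell at 24 h and none rose, with a median of -0.25. Among all 9947 tested genes 2797 fell and 2378 rose. MTRR, which reactivates methionine synthase, fell by 0.73 ± 0.07 (adjusted p = 1.31e-05), AHCY, which hydrolyses S-adenosylhomocysteine, by 0.88 ± 0.09 (adjusted p = 1.67e-05), and MAT2A, which makes S-adenosylmethionine, by 0.65 ± 0.13 (adjusted p = 0.00185). AHCYL1, a homolog of AHCY, differed by 0.18 ± 0.09 (adjusted p = 0.133). With the experiment as a replicate block 4 genes of the list fell at 24 h and 1 rose: AHCYL1 passed (adjusted p = 0.0384), as did the methionine synthase MTR, named after its value was seen, at -0.25 and only just under the threshold. In the other lists the block added 4 genes at 24 h, also named after their values were seen, which were AMT (0.52, adjusted p = 0.0121), TK1 (0.38, adjusted p = 0.00666) and SRR (0.35, adjusted p = 0.0231), all higher, and SFXN3 (-0.33, adjusted p = 0.0192), lower. Over all tested probe sets this block, nested in time, raised the share called at 24 h from 47.3% to 56.5%. MTRR also passed at 6 h, at -0.32 ± 0.07 (adjusted p = 0.0294), a call lost without any 1 of the arrays of experiments 1 and 3, in either group (adjusted p of up to 0.0968), and with the experiment as a replicate block 2 genes of the list passed at 6 h, both lower.

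**Figure D3:**
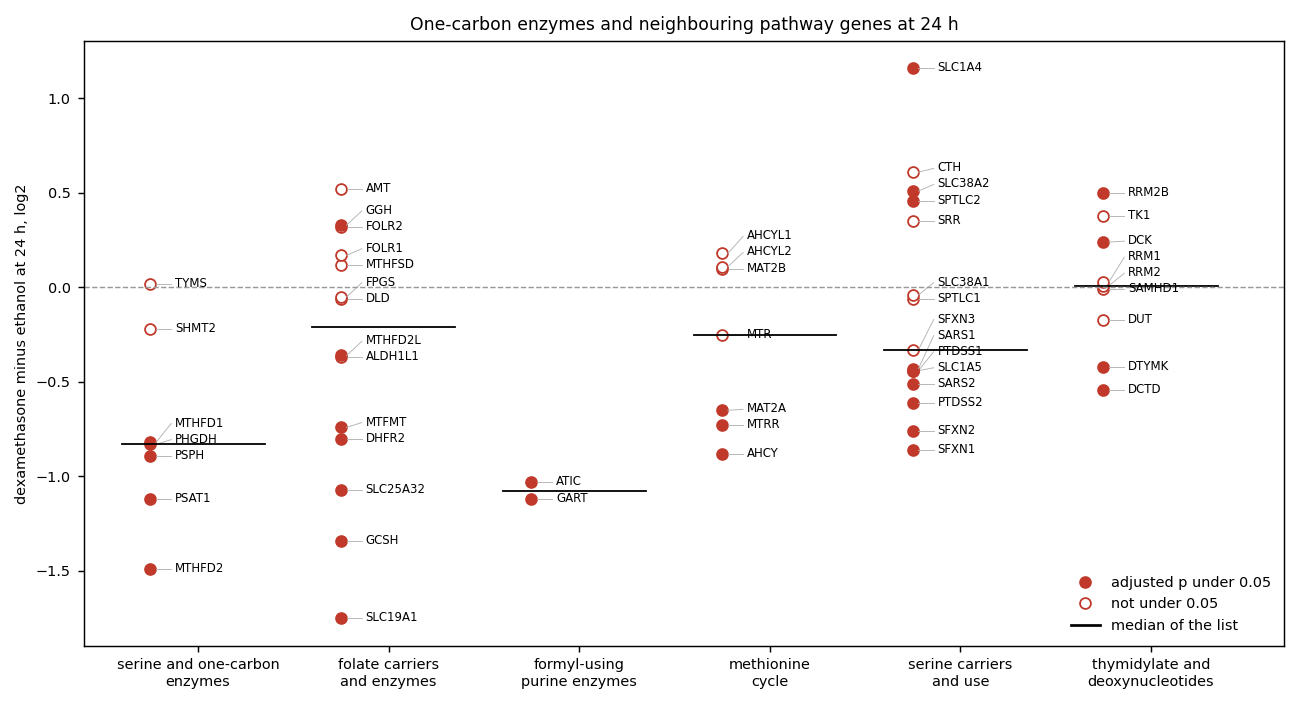
Log2 difference between dexamethasone and ethanol at 24 h (vertical axis) for each tested gene of the one-carbon enzymes and of 5 neighbouring lists, with 1 point per gene and bars for list medians. Filled points passed an adjusted p under 0.05. The one-carbon enzymes have a median of -0.83 over 7 genes, and the thymidylate and deoxynucleotide genes one of 0.01 over 9 genes.

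MYC and ATF4, transcription factors known to act on these enzymes were read once. MYC fell by 2.72 ± 0.10 at 24 h (adjusted p = 1.60e-08), to 15.2% of ethanol, and by 0.99 ± 0.10 at 6 h (adjusted p = 0.000262). ATF4, the factor of the amino acid response, fell by 0.69 ± 0.12 at 24 h (adjusted p = 0.000860) and differed by -0.15 ± 0.12 at 6 h (adjusted p = 0.543). Whether either acts on the members in these cells was not tested.

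As a description across the 12 arrays, which share the 4 groups and so mostly repeat the low values of 24 h dexamethasone, each member was correlated with the mean profile of the 7 tested members. Pearson's r was 0.97 for PHGDH, 0.96 for MTHFD1, 0.92 for PSAT1, 0.89 for MTHFD2, 0.87 for PSPH, 0.82 for SHMT2 and 0.37 for TYMS, each of which is itself part of that mean. Between single members it was 0.95 for PHGDH with MTHFD1 and for PSAT1 with MTHFD2, and -0.04 for TYMS with MTHFD2. Among the 9940 other tested genes, the 5 most like the mean profile were POLD2 (r = 0.986), a subunit of a DNA polymerase of the replication fork, LONP1 (0.983), a protease of the mitochondrial matrix, the spliceosomal GTPase EFTUD2 (0.983), BCAT2 (0.983), which handles branched-chain amino acids in mitochondria, and TUFM (0.982), the elongation factor of mitochondrial translation. Their 24 h differences, which the choice by likeness largely fixes, lay between -1.02 for LONP1 and -0.68 for EFTUD2.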

How the data were processed

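Total RNA of 12 cultures was hybridised to Affymetrix arrays. The authors deposited log2 values per probe set, computed in R 2.6 by the GCRMA method according to the submitters' processing notes, and neither its options nor the set of arrays normalized in 1 run is known here. Of 54675 probe sets, 62 were controls and stayed out of the tests, and 41091 of the rest carried 1 gene symbol in the platform annotation, 1801 several and 11721 none. Symbols were brought to RefSeq names of GRCh38.p14. Probe sets with several symbols were tested but counted for no gene.

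A group-means model was fitted to the 23265 probe sets with a log2 of 4 or more on at least 3 of 12 arrays, with limma 3.58.1 in R 4.3.3 (8 residual degrees of freedom, two-sided), and p was adjusted by Benjamini-Hochberg over all of them, with calls at an adjusted p under 0.05. Percentages of ethanol are antilogs of log2 differences. Errors after differences are limma's standard errors. The p-values reflect how far 3 independent experiments on a single cell line differed, and the number of arrays limits the precision. The code was tested on simulated data. Promoter windows came from RefSeq.

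Members, lists, motifs and tests were chosen with earlier results of these data known. The naming rule took all 9 members, up to 4 genes per list with the smallest p at 24 h, MYC, ATF4 and the 5 genes most like the members. Genes outside it are marked.

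The labels number the experiments. Same-numbered dexamethasone and ethanol arrays deviated together from their group means (24 h correlations of 0.286, 0.238 and 0.424, 6 h correlations of 0.417, 0.627 and 0.609), so the numbers were taken to pair the samples. Other pairs were at most 0.0500, but centring on group means lowers them where same-numbered pairs are positive, so they add no separate evidence. The fit without this block is reported, and the block is an alternative. The others were 2 filters, 3 scalings, trended and robust moderation, fits to the compared arrays only, 1 probe set per gene, a stricter threshold and leaving out each array.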

Additional observations from a re-analysis of the deposited data

Results flagged for a closer look

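For 8 one-carbon probe sets the response to dexamethasone differed between 24 h and 6 h in limma's test of the difference itself, with each value being the 24 h difference minus the 6 h difference on the log2 scale. PSAT1 stood at -1.02 (220892_s_at) and -0.96 (223062_s_at), MTHFD2 (201761_at) at -1.00, PHGDH at -0.90 and MTHFD1 at -0.87. PSPH (205194_at) stood at -0.73 and SHMT2 at -0.65 (214095_at) and -0.50 (214096_s_at). The same test passed in 23.1% of all tested probe sets, and the 6 h arrays on which every such value leans were scanned in a separate batch per treatment.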

How the results depend on the processing

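At 24 h all 9 falls kept their direction and their call under every alternative that tested them: the count was 9 with the replicate block of either kind, 11 on the spike scale, 5 of 7 with 1 probe set per gene, and 9 to 10 with 1 array left out. At 6 h the count of 1 became 2 with either replicate block, 11 on the spike scale, 0 in a fit to the 6 h arrays alone, 0 at an adjusted p under 0.01, and 0 to 1 with 1 array left out. On that scale 5 differences that had been positive at 6 h became negative past the test, at -0.40 for PHGDH, -0.47 and -0.36 for SHMT2 (214095_at and 214437_s_at), -0.43 for MTHFD1 and -0.36 for TYMS (202589_at), because the whole array moves with the spikes. The count of changed responses, 8, was 10 with either block, 5 on the spike scale, 3 at an adjusted p under 0.01, and 6 to 9 with 1 array left out. The count in ethanol was 0 under every alternative run. The replicate block nested in time changed no other member's call at 24 h or 6 h than that of TYMS 217684_at. Over all probe sets, the 1443 calls at 6 h became 3039 with the block nested in time, 2219 with the shared block, 15823 on the spike scale (268 higher and 15555 lower), 490 with the 6 h arrays alone and 555 at the stricter threshold. The 10997 calls at 24 h became 13139 with the block nested in time, 12102 with the shared block and 12407 on the spike scale. For the changed response, 5380 calls became 7882, 6601 and 3282 in the same order, and 2725 at the stricter threshold. A block nested in time cannot be fitted to ethanol at 24 h against 6 h, and the changed response needs all arrays.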
